A study of Mus musculus with 8 samples.

Results

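The report covers 36 interferon-stimulated genes, a set chosen by symbol from genes that cells switch on after sensing an interferon. All 36 were found by symbol among the 22056 genes of the deposited tables, and all 36 passed the filter on low counts, which kept 13931 genes. Of these, 14 passed only because of the brain libraries and would have failed the same filter on the other 6: Isg15, Ifit1, Ifit3, Gbp2, Gbp3, Gbp7, Oasl2, Oas1a, Oas2, Zbp1, Ifi44, Parp14, Samd9l and Sp100. They were followed in the tumour cells and host cells of N2N1G allografts, tumours of a murine small cell lung cancer line that were harvested 3 weeks after transplantation of 1000000 cells each. Cells had been injected directly to form brain tumours (2 libraries) and subcutaneous tumours of the flank (3 libraries), and had reached the liver through the tail vein (3 libraries), so site and route cannot be told apart in the comparisons with liver. Suspensions of whole tumours were sorted for healthy cells and profiled with 10x Genomics 3′ RNA sequencing. The labels give no strain, age or sex of the mice and do not say that the libraries of a site came from separate animals, so the p-values measure the spread between these libraries. All tumours came from 1 cell line, which limits them as a model of the disease.

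Interferons are secreted proteins that bind receptors on the cell surface. The type I and type III receptors act through JAK1 and TYK2 to bring STAT2 and IRF9 into a complex that binds interferon-stimulated response elements, and the interferon gamma receptor acts through JAK1 and JAK2 on genes with gamma-activated sites. The genes switched on include sensors of foreign RNA and DNA, enzymes that block translation or degrade RNA, proteins that hold virus particles at the membrane, and regulators that amplify the response or end it.

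Tumour cells were cells with at least 0.2% of their unique molecular identifiers (UMIs, each 1 counted mRNA 3′ end) from eGFP and Mycl, and cells below that share were called host cells by this rule. There were 2418 and 4060 tumour cells in the brain libraries, 4114 to 4720 in the liver libraries and 4150 to 6276 in the subcutaneous libraries. Neuroendocrine markers had a UMI in 99.5% to 99.96% of tumour cells. The rule gave 958 and 351 host cells in brain and 51 to 273 in each other library. Outside brain, 476 of 769 host cells (61.9%) lay in clusters whose markers named them tumour-like, so the host values of liver and of subcutaneous libraries 2 and 3 are largely those of tumour cells with little reporter RNA. Transcripts of host cells were also counted in tumour cells: the 11 macrophage markers summed to 524 and 79.0 CPM (UMIs scaled to a library total of 1000000) in tumour cells of the brain libraries, 6.48 to 15.5 CPM in liver, and 46.0, 2.26 and 2.41 CPM in subcutaneous libraries 1, 2 and 3. Any 2 libraries shared 20 to 56 cell barcodes (0.498% to 1.16% of the smaller library).

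Promoter sequences were searched for the cores of these elements. A window of 300 bases around the transcription start (250 before, 50 after; RefSeq, build GRCm38.p6) was given for 27 of the 36 genes. The core of the interferon-stimulated response element was searched on both strands as GAAA, any 2 bases and GAAA again. The core of the gamma-activated site was searched as TTC, any 3 bases and GAA, which reads alike on both strands. The response element core was found in the windows of 14 of the 27 genes (51.9%), against 3.99% of all 27025 genes with a window. The gamma-activated core was found in 8 of 27 (29.6%), against 9.55%. In the list of further interferon-stimulated genes described below, 20 of 35 genes with a window (57.1%) held the response element core. In the following stretches, capitals mark matches to the response element core, and in Irf1 the match to the gamma-activated core. The stretches lie wholly upstream of the start site and read 5′ to 3′ on the gene's own strand. They are shown because they cover the main kinds of members: genes with several overlapping cores, genes with 1 core, a gene with the core that was not called in the tumour cells (Stat2), and the gamma-activated core of Irf1.
Isg15 (chr4:156200860-156200911, minus strand): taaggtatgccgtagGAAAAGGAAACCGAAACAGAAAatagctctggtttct
Bst2 (chr8:71537572-71537617, minus strand): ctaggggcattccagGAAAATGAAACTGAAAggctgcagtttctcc
Ifit1 (chr19:34640770-34640828, plus strand): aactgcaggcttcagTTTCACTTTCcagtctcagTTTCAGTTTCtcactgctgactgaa
Ifit3 (chr19:34583358-34583431, plus strand): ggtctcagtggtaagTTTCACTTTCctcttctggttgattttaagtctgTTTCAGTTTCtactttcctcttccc
Rsad2 (chr12:26456548-26456587, minus strand): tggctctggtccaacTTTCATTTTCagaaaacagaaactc
Gbp3 (chr3:142559984-142560029, plus strand): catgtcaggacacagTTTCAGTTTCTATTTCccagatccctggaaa
Gbp7 (chr3:142530268-142530307, plus strand): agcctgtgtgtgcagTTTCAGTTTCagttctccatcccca
Stat2 (chr10:128270261-128270300, plus strand): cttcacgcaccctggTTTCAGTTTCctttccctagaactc
Irf1 (chr11:53769909-53769947, plus strand): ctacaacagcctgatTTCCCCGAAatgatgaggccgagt
Isg15 held 3 overlapping response element cores in 1 run and Bst2 held 2, between 130 and 115 bases upstream of the start. The Bst2 stretch also holds a gamma-activated core, not marked by capitals, whose first base is at -136 from the start. Ifit1 and Ifit3 each held 2 separate cores on the opposite strand. Gbp3 held 2 overlapping cores and Gbp7 held 1, within 53 bases of the start, whereas the core of Stat2 began 222 bases upstream. The other members with a response element core in their window were Ddx58, Eif2ak2, Gbp2, Ifih1, Ifitm3 and Oas1a. A match of letters is a description and not a shown binding site, and a window without a match, as in Irf7 and Irf9, says only that these letters are not in it.

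In tumour cells, most members were higher in brain than at either other site. UMI counts were summed over the tumour cells of each library and compared in 1 edgeR model over all 8 libraries, with p-values adjusted over all 13931 genes. Against liver, 32 of 36 members were higher in brain and 0 lower, where 21.8% of all genes were called in either direction, 13.2% as higher in brain and 8.56% as lower. Against subcutaneous tumours, 27 members were higher in brain and 0 lower, where 15.1% of all genes were called in either direction, 8.94% as higher in brain and 6.13% as lower. Genes that enter only through brain had to be higher there, so the 22 members that would also pass without the brain libraries are given apart. Of them, 19 were higher in brain than in liver and 18 higher than in subcutaneous tumours, with median log2 fold changes of 2.44 and 2.26. The median log2 fold change of all 36 members was 3.96 against liver and 2.95 against subcutaneous tumours, while the median over all genes was 0.0012 and -0.00045. Both contrasts use the same 2 brain libraries, so the 27 members called in both (7.35% of all genes were, and 3.45% were lower in brain in both) are not a second, independent observation. In 33 of the 36 members, both brain libraries lay above all 6 others, which held for 20.6% of all genes. The 33 include all 14 members that passed the filter only through brain. The exceptions, Ifitm3, Stat2 and Irf1, were among the 22 that pass without it. The share over all genes that pass without brain was not computed. Between liver and subcutaneous tumours 1 member was called, Irf1, which was lower in liver, where 2.83% of all genes were called in either direction, 1.90% as lower in liver and 0.933% as higher.

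**Figure D1:**
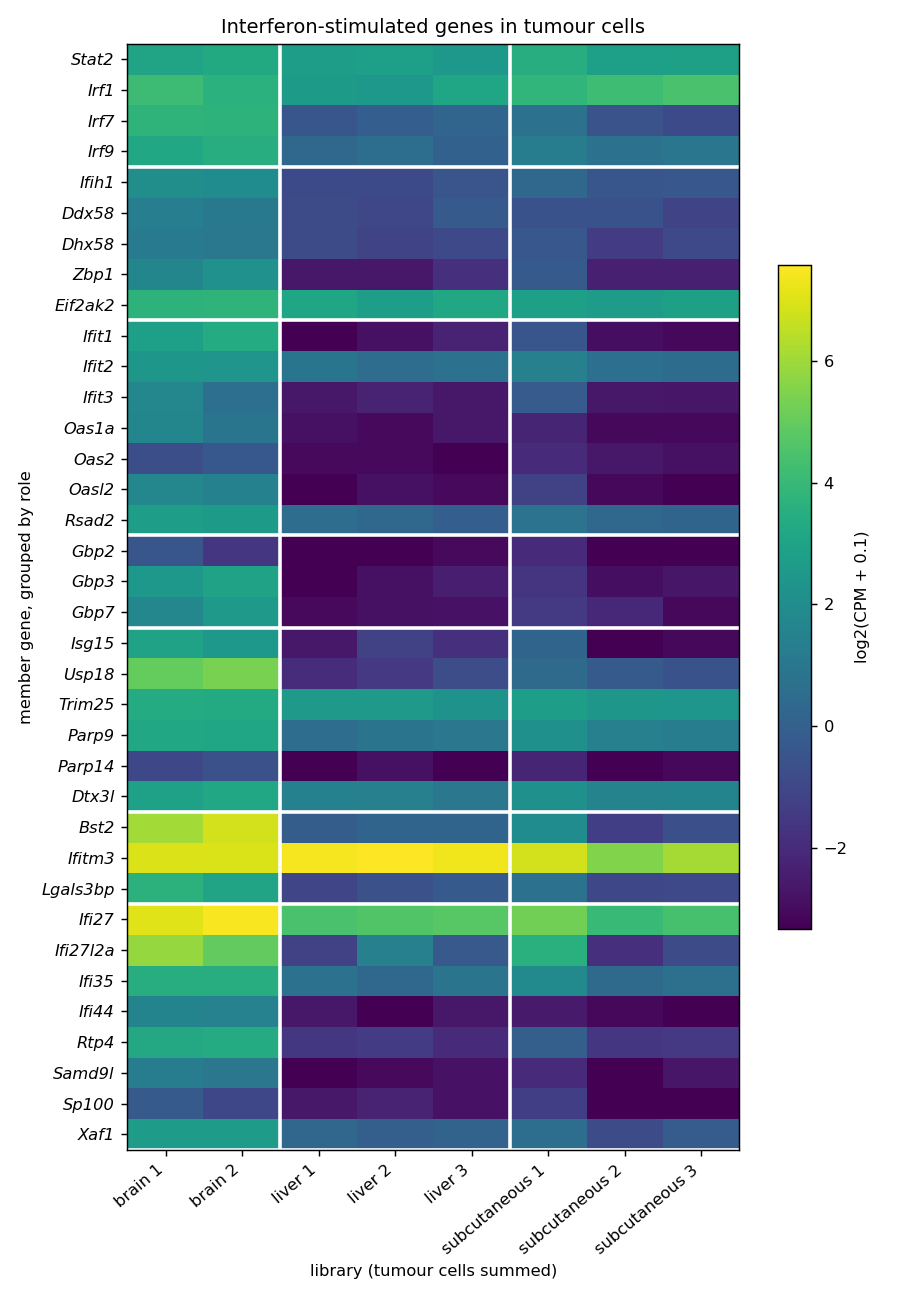
Level of the 36 interferon-stimulated genes (rows, grouped by role) in the summed tumour cells of the 8 libraries (columns), as log2 of CPM plus 0.1. The 2 brain columns are brighter than the other 6 in most rows, Ifitm3 is bright at every site, and subcutaneous library 1 is brighter than the other libraries outside brain in 32 rows.

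The calls leaned on the number of brain libraries. Without brain library 1 the model called 24 members as higher than in liver and 16 as higher than in subcutaneous tumours, with 5.76% and 1.99% of all genes. Without brain library 2 it called 27 and 19 members, with 6.96% and 3.22% of all genes. The lone brain library is then assumed to vary like the other groups. The calls against liver lost without brain library 1 were those of Isg15, Ifit3, Irf1, Gbp2, Ddx58, Parp14, Trim25 and Eif2ak2. The calls against subcutaneous tumours lost without it were those of Ifit1, Ifit2, Oasl2, Oas2, Zbp1, Ddx58, Dhx58, Parp9, Dtx3l, Trim25 and Samd9l. In each contrast, the remaining members kept their call in every alternative run that tested them, including each library left out. Some runs, among them the one on thinned cells, did not test every member. Isg15 and Gbp2 also lost their call against liver when brain library 2 or any 1 liver library was left out, and Parp14 lost it without brain library 2 or liver library 1 or 3. Trim25 also lost it without brain library 2, Eif2ak2 without brain library 2 or liver library 2, Irf1 without liver library 1 or 2, and Ifit3 without liver library 1. Against subcutaneous tumours, Ifit1, Ifit2, Oasl2, Oas2, Zbp1, Parp9, Dtx3l and Trim25 were not called without brain library 2. Leaving out subcutaneous library 2 ended the calls of Ifit1, Oas2 and Oasl2, and leaving out subcutaneous library 3 those of Oas2, Trim25 and Zbp1 (24 members called in each case). In the fit of brain and subcutaneous libraries alone, Ifit1, Ifit2, Oasl2, Oas2 and Zbp1 were not called. Stat2, which was not called in either brain contrast, was the 1 member whose direction in these 2 contrasts turned when a library was left out. Its log2 fold change against subcutaneous tumours was 0.10 with all libraries and -0.06 without brain library 2.

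Among the 4 signalling factors, Irf7 and Irf9 were higher in brain in both contrasts. Irf7 encodes the factor that amplifies the type I response, and its level was 13.5 and 13.1 CPM in the brain libraries, 0.648, 0.857 and 1.06 CPM in the liver libraries and 1.58, 0.596 and 0.443 CPM in the subcutaneous libraries. The brain libraries stood above the 6 others with no overlap, with a log2 fold change of 3.84 ± 0.44 (adjusted p = 0.00119) against liver and 3.95 ± 0.44 (adjusted p = 0.00159) against subcutaneous tumours (value ± SE, edgeR). Irf9, a DNA-binding partner of STAT2, was at 8.85 and 10.9 CPM in brain, against 1.13, 1.42 and 0.950 CPM in liver and 2.25, 1.64 and 1.83 CPM under the skin. Its groups did not overlap either, and its log2 fold changes were 2.96 and 2.38 with adjusted p-values of 0.000388 and 0.000805. Irf1, a factor induced by interferon gamma among other signals, followed another order. It was at 17.5 and 12.2 CPM in the brain libraries, 6.05, 5.46 and 8.42 CPM in the liver libraries and 14.3, 18.1 and 21.98 CPM in the subcutaneous libraries. The liver libraries were the lowest 3, and the brain libraries lay within or below the range of the subcutaneous ones. Irf1 was higher in brain than in liver, with a log2 fold change of 1.04 ± 0.23 (adjusted p = 0.0142), and lower in liver than in subcutaneous tumours, at -1.34 ± 0.21 (adjusted p = 0.0193). That last call was lost when liver library 1 or 2 or subcutaneous library 2 or 3 was left out (adjusted p = 0.0904, 0.130, 0.0652 and 0.0545). Stat2, the remaining factor, was at 5.46 to 10.9 CPM in all 8 libraries and was not called in any contrast, and its largest value was in subcutaneous library 1.

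**Figure D2:**
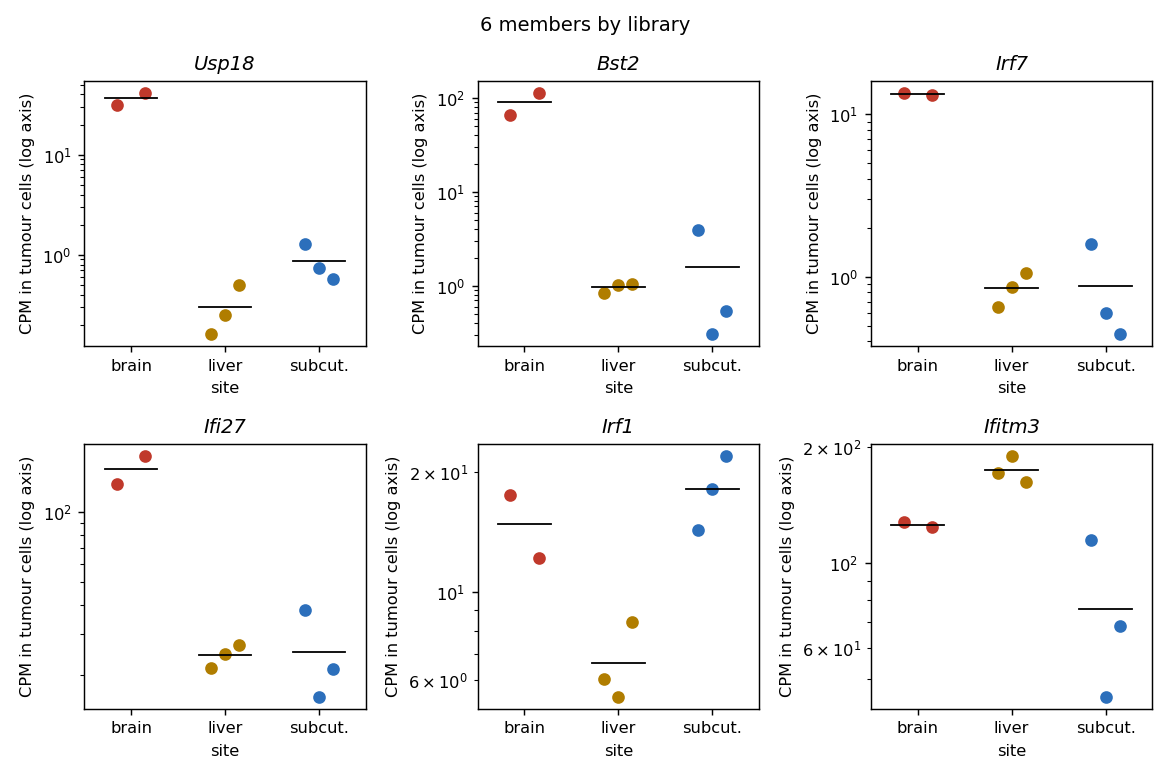
CPM of 6 members in tumour cells of each library (points, log axis), with the mean of each site as a bar. Usp18, Bst2, Irf7 and Ifi27 are highest in both brain libraries, Irf1 is lowest in the 3 liver libraries, and Ifitm3 is highest in the 3 liver libraries.

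All 5 sensors of foreign nucleic acid were higher in brain in both contrasts. Among the alternatives that kept all libraries of the 2 sites, 2 calls ended, both against subcutaneous tumours. These were Dhx58 on thinned cells (log2 fold change 1.25, edgeR adjusted p = 0.131, in place of 2.18) and Zbp1 in the fit of brain and subcutaneous libraries alone (3.67, adjusted p = 0.0678). The calls of sensors that ended when a library was left out, among them those of Ddx58 and Eif2ak2, are given above. Ifih1, which encodes the sensor MDA5 of long double-stranded RNA, was at 4.10 and 3.82 CPM in brain, against 0.445, 0.439 and 0.626 CPM in liver and 1.15, 0.661 and 0.674 CPM under the skin. Its log2 fold change was 2.86 ± 0.32 (adjusted p = 0.00110) against liver and 2.26 ± 0.31 (adjusted p = 0.00351) against subcutaneous tumours. Ddx58, which encodes the RNA sensor RIG-I, had 2.40 and 2.04 CPM in the brain libraries, 0.486, 0.397 and 0.755 CPM in the liver libraries and 0.575, 0.564 and 0.366 CPM in the subcutaneous libraries. Dhx58, the regulator LGP2 of both, was measured at 2.17 and 1.94 CPM in brain, against 0.466, 0.376 and 0.432 CPM in liver and 0.671, 0.274 and 0.424 CPM under the skin. Brain libraries exceeded all others for each of these helicases, with log2 fold changes of 1.91 and 2.15 against liver. Zbp1, a sensor of Z-form nucleic acid that can start necroptosis, was at 3.14 and 4.495 CPM in the brain libraries, 0.0607, 0.0627 and 0.173 CPM in the liver libraries and 0.743, 0.0967 and 0.0963 CPM in the subcutaneous libraries. Eif2ak2 encodes the kinase PKR, which halts translation on double-stranded RNA. It was at 13.2 and 13.6 CPM in brain, against 8.58, 6.84 and 8.81 CPM in liver and 6.98, 6.45 and 7.21 CPM under the skin. Zbp1 was low outside brain except in subcutaneous library 1, while Eif2ak2 was well expressed everywhere and differed by 0.62 and 0.96 on the log2 scale, the smallest changes among the called sensors.

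Of the 7 effectors of the Ifit, Oas and Rsad2 families, 7 were higher in brain than in liver and 6 higher than in subcutaneous tumours. Ifit1, which binds RNA with foreign 5′ ends, was at 6.96 and 10.5 CPM in the brain libraries, 0, 0.0418 and 0.108 CPM in the liver libraries and 0.647, 0.0322 and 0.0193 CPM in the subcutaneous libraries. Its 2 brain libraries did not overlap the rest, and the log2 fold change was 7.29 ± 1.23 (adjusted p = 0.00669) against liver and 5.35 ± 1.05 (adjusted p = 0.0174) against subcutaneous tumours. Ifit2 was at 5.35 and 5.09 CPM in brain, against 1.80, 1.40 and 1.62 CPM in liver and 2.59, 1.47 and 1.35 CPM under the skin. Ifit3 was at 3.18 and 1.47 CPM in brain, against 0.0607, 0.105 and 0.0648 CPM in liver and 0.767, 0.0645 and 0.0578 CPM under the skin. Ifit2 had a basal level of over 1 CPM at every site and a smaller change (1.58 and 1.54). Ifit3 was called against liver at 4.75 ± 1.03 (adjusted p = 0.0125) and not against subcutaneous tumours at 3.02 ± 0.91 (adjusted p = 0.0552). Without subcutaneous library 1 that value was 5.15 (edgeR adjusted p = 0.000105), and Ifit3 was also called by DESeq2 (adjusted p = 0.0198). Ifit3 has a near-identical neighbour, Ifit3b, and reads that fit both may have been lost or split, so its level is uncertain.

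The 2′-5′ oligoadenylate synthetases make the messenger that activates RNase L. Oas1a was at 3.14 and 1.78 CPM in the brain libraries, 0.0405, 0.0209 and 0.0648 CPM in the liver libraries and 0.120, 0.0161 and 0.0193 CPM in the subcutaneous libraries, with log2 fold changes of 5.67 ± 0.70 (adjusted p = 0.00160) and 5.62 ± 0.69 (adjusted p = 0.00232). It shares sequence with Oas1g, and its level is uncertain for the same reason. Oas2 was at 0.507 and 0.698 CPM in brain, against 0.0202, 0.0209 and 0 CPM in liver and 0.144, 0.0645 and 0.0385 CPM under the skin, under 1 CPM in all libraries. Oasl2, an oligoadenylate synthetase-like protein, was at 3.23 and 2.66 CPM in brain, against 0, 0.0418 and 0.0216 CPM in liver and 0.336, 0.0161 and 0 CPM under the skin. Both rested on few UMIs in liver: 38 UMIs of Oas2 in brain against 2 in liver gave a ratio of CPM of 45.2 (exact 95% interval 11.7 to 386), and 173 UMIs of Oasl2 against 3 gave 137 (46.1 to 671). These intervals cover counting error only. Against subcutaneous tumours the log2 fold changes were 2.89 ± 0.65 (adjusted p = 0.0213) and 4.76 ± 1.03 (adjusted p = 0.0191). Rsad2 encodes viperin, which makes a chain-terminating nucleotide. It was at 6.50 and 5.97 CPM in the brain libraries, 1.38, 1.13 and 0.863 CPM in the liver libraries and 1.68, 1.19 and 1.04 CPM in the subcutaneous libraries, with log2 fold changes of 2.35 and 2.26 and no overlap between brain and the other sites.

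Guanylate-binding proteins are interferon-induced GTPases that attack the membranes of intracellular microbes, and their genes lie side by side on chromosome 3 (chr3:142530342-142550149, chr3:142560026-142573209 and chr3:142620602-142638008 for Gbp7, Gbp3 and Gbp2, build GRCm38). Gbp3 was at 5.44 and 7.70 CPM in the brain libraries, 0, 0.0418 and 0.0863 CPM in the liver libraries and 0.216, 0.0322 and 0.0578 CPM in the subcutaneous libraries. Gbp7 was at 3.23 and 5.63 CPM in brain, against 0.0202, 0.0418 and 0.0432 CPM in liver and 0.264, 0.129 and 0.0193 CPM under the skin. Both stood apart in brain, with log2 fold changes of 7.10 ± 0.74 (adjusted p = 0.000864) and 6.09 ± 0.67 (adjusted p = 0.00148) for Gbp3 and 6.78 ± 0.74 (adjusted p = 0.000998) and 5.04 ± 0.63 (adjusted p = 0.00251) for Gbp7. Gbp2 was far lower, at 0.645 and 0.233 CPM in brain, against 0, 0 and 0.0216 CPM in liver and 0.144, 0 and 0 CPM under the skin. Its 23 UMIs in brain against 1 in liver gave a ratio of 54.7 (8.88 to 2252). The call of Gbp2 against liver was lost with the replicate number as a block (edgeR adjusted p = 0.0604) and with a tumour-cell cut of 0.1% (0.0523). Against subcutaneous tumours it was not called, at 3.26 ± 1.21 (adjusted p = 0.101). Without subcutaneous library 1 that value was 7.18 (edgeR adjusted p = 0.00368). Members of this family resemble each other, so reads may have been shared among them.

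ISG15 is a ubiquitin-like protein, and USP18 both removes it from its targets and blocks the type I receptor. Usp18 was at 31.7 and 41.2 CPM in the brain libraries, 0.162, 0.251 and 0.496 CPM in the liver libraries and 1.27, 0.741 and 0.578 CPM in the subcutaneous libraries. Its lowest brain library was far above the highest of the 6 others, and its log2 fold changes of 6.80 ± 0.40 (adjusted p = 0.000149) and 5.42 ± 0.36 (adjusted p = 0.000165) had the smallest adjusted p-values of all members in both contrasts. Isg15 itself was at 7.65 and 5.43 CPM in brain, against 0.0607, 0.335 and 0.173 CPM in liver and 1.06, 0 and 0.0193 CPM under the skin. It was called against liver at 4.98 ± 1.38 (adjusted p = 0.0387). That call was lost among tumour cells without a macrophage marker UMI (log2 fold change 4.46, edgeR adjusted p = 0.0507). It was also lost with the replicate number as a block (adjusted p = 0.118), without the low-count filter (0.0836) and with a tumour-cell cut of 0.1% (0.113). Against subcutaneous tumours Isg15 was not called, at 4.28 ± 1.31 (adjusted p = 0.0664). This contrast was called at 9.12 (edgeR adjusted p = 2.27e-05) without subcutaneous library 1, and at 4.14 (adjusted p = 0.0192) on thinned cells and 5.07 (adjusted p = 0.0107) on tumour cells with at most 1 host marker UMI. The ISG15-promoting ubiquitin ligase Trim25 was at 10.2 and 10.00 CPM in the brain libraries, 5.67, 5.69 and 4.62 CPM in the liver libraries and 6.59, 5.37 and 5.14 CPM in the subcutaneous libraries, and brain lay above all other libraries by a small margin, at 0.81 ± 0.17 (adjusted p = 0.0110) and 0.83 ± 0.17 (adjusted p = 0.0153). Parp9 and Dtx3l form a complex that joins ADP-ribosylation with ubiquitination, and their genes overlap at their 5′ ends on chromosome 16. Parp9 was at 8.85 and 8.60 CPM in brain, against 1.40, 1.74 and 1.90 CPM in liver and 4.36, 2.55 and 2.31 CPM under the skin. Dtx3l was at 7.52 and 8.86 CPM in brain, against 2.65, 2.61 and 1.92 CPM in liver and 4.32, 2.79 and 2.95 CPM under the skin. Both were higher in brain, by 2.27 and 1.66 against liver and 1.51 and 1.29 against subcutaneous tumours on the log2 scale. Parp14, a related mono-ADP-ribosyltransferase, was at 0.415 and 0.543 CPM in the brain libraries, 0, 0.0418 and 0 CPM in the liver libraries and 0.120, 0 and 0.0193 CPM in the subcutaneous libraries. Its 30 UMIs in brain against 2 in liver gave a ratio of 35.7 (9.05 to 308), and its call against liver was lost with the replicate number as a block (edgeR adjusted p = 0.0644). It was not called against subcutaneous tumours (3.47 ± 1.05, adjusted p = 0.0545). Without subcutaneous library 1 Parp14 was called at 5.39 (edgeR adjusted p = 0.00285).

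Bst2 had the third highest mean level over the 8 libraries after Ifitm3 and Ifi27, and a large difference between sites. It encodes tetherin, which holds budding virus particles at the cell surface, and lies at chr8:71534255-71537456 (GRCm38, minus strand). It was at 66.5 and 113 CPM in the brain libraries, 0.830, 1.02 and 1.04 CPM in the liver libraries and 3.88, 0.306 and 0.539 CPM in the subcutaneous libraries. No brain library came near the others, of which subcutaneous library 1 was highest, and the log2 fold changes were 6.43 ± 0.92 (adjusted p = 0.00536) and 5.92 ± 0.89 (adjusted p = 0.00965). Ifitm3, which blocks the fusion of viruses in endosomes, went against this order. It was at 128 and 124 CPM in the brain libraries, 171, 190.1 and 162 CPM in the liver libraries and 115, 44.8 and 68.3 CPM in the subcutaneous libraries. The liver libraries were the highest 3, brain lay between them and the subcutaneous libraries, and no contrast was called (adjusted p = 0.225 and 0.152 for brain against liver and subcutaneous tumours, and 0.0524 for liver against subcutaneous tumours). With all libraries kept, DESeq2 called Ifitm3 as higher in liver than in subcutaneous tumours (adjusted p = 2.42e-05). So did edgeR with RLE size factors (adjusted p = 0.0485) and on thinned cells (0.0445). The same call came from edgeR on cells without a macrophage marker UMI (0.0293) and with at most 1 host marker UMI (0.0224). Without subcutaneous library 1 this difference was 1.74 on the log2 scale (edgeR adjusted p = 0.000591). Ifitm3 was then also the 1 member called as lower in brain than in liver, at -0.59. Lgals3bp, a secreted glycoprotein that binds galectin-3, was at 12.5 and 8.03 CPM in brain, against 0.385, 0.544 and 0.755 CPM in liver and 1.56, 0.419 and 0.424 CPM under the skin, with log2 fold changes of 4.08 and 3.71.

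The remaining 8 members have other or less settled roles, and 6 of them were higher in brain in both contrasts. Ifi27 encodes a small mitochondrial and nuclear membrane protein and was at 132 and 175 CPM in the brain libraries, 21.5, 24.6 and 26.9 CPM in the liver libraries and 38.0, 16.1 and 21.2 CPM in the subcutaneous libraries. It had a basal level at every site, and brain stood above it by 2.55 ± 0.31 (adjusted p = 0.00169) and 2.62 ± 0.31 (adjusted p = 0.00233) on the log2 scale. Its neighbour on chromosome 12, Ifi27l2a, was at 57.4 and 30.8 CPM in brain, against 0.344, 2.59 and 0.734 CPM in liver and 11.9, 0.177 and 0.462 CPM under the skin. Both brain libraries were above all others, but subcutaneous library 1 reached 11.9 CPM and the spread within sites was wide, so that neither contrast was called (5.05 ± 1.74, adjusted p = 0.0941, and 3.43 ± 1.60, adjusted p = 0.209). Without subcutaneous library 1 Ifi27l2a was called in both, at log2 fold changes of 5.05 (adjusted p = 0.00638) and 7.13 (adjusted p = 0.00587). Rtp4, a chaperone of membrane receptors, was at 9.54 and 10.3 CPM in the brain libraries, 0.243, 0.272 and 0.151 CPM in the liver libraries and 0.887, 0.226 and 0.2505 CPM in the subcutaneous libraries. Ifi35, a partner of the protein NMI, was at 10.97 and 11.1 CPM in brain, against 1.62, 1.15 and 1.71 CPM in liver and 3.55, 1.26 and 1.54 CPM under the skin. Xaf1, a pro-apoptotic antagonist of XIAP, was at 6.32 and 6.12 CPM in brain, against 1.09, 0.878 and 1.01 CPM in liver and 1.41, 0.467 and 0.790 CPM under the skin. In each of these 3, brain did not overlap the other sites, and the log2 fold changes against liver and subcutaneous tumours were 5.34 and 4.49 for Rtp4, 2.77 and 2.39 for Ifi35, and 2.53 and 2.82 for Xaf1. Ifi44 was at 2.90 and 2.71 CPM in the brain libraries, 0.0607, 0 and 0.0648 CPM in the liver libraries and 0.0719, 0.0161 and 0 CPM in the subcutaneous libraries. Samd9l, an antiviral factor, was at 2.31 and 1.89 CPM in the brain libraries, 0, 0.0209 and 0.0432 CPM in the liver libraries and 0.144, 0 and 0.0578 CPM in the subcutaneous libraries. Ifi44 was called at 5.87 ± 0.78 (adjusted p = 0.00208) and 6.58 ± 0.82 (adjusted p = 0.00250), and for Samd9l 123 UMIs in brain against 3 in liver gave a ratio of 97.4 (32.6 to 479). Sp100, a component of nuclear bodies, was under 1 CPM in all 8 libraries and was not called (2.85 ± 1.25, adjusted p = 0.134, and 2.56 ± 1.22, adjusted p = 0.186). Without subcutaneous library 1 it was called in both, at 2.84 (edgeR adjusted p = 0.00533) against liver and 7.62 (adjusted p = 0.000876) against subcutaneous tumours, and in the fit of brain and liver alone at 2.83 (adjusted p = 0.00487). The mouse genome holds many copies of Sp100-related sequence, so this level is uncertain.

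**Figure D3:**
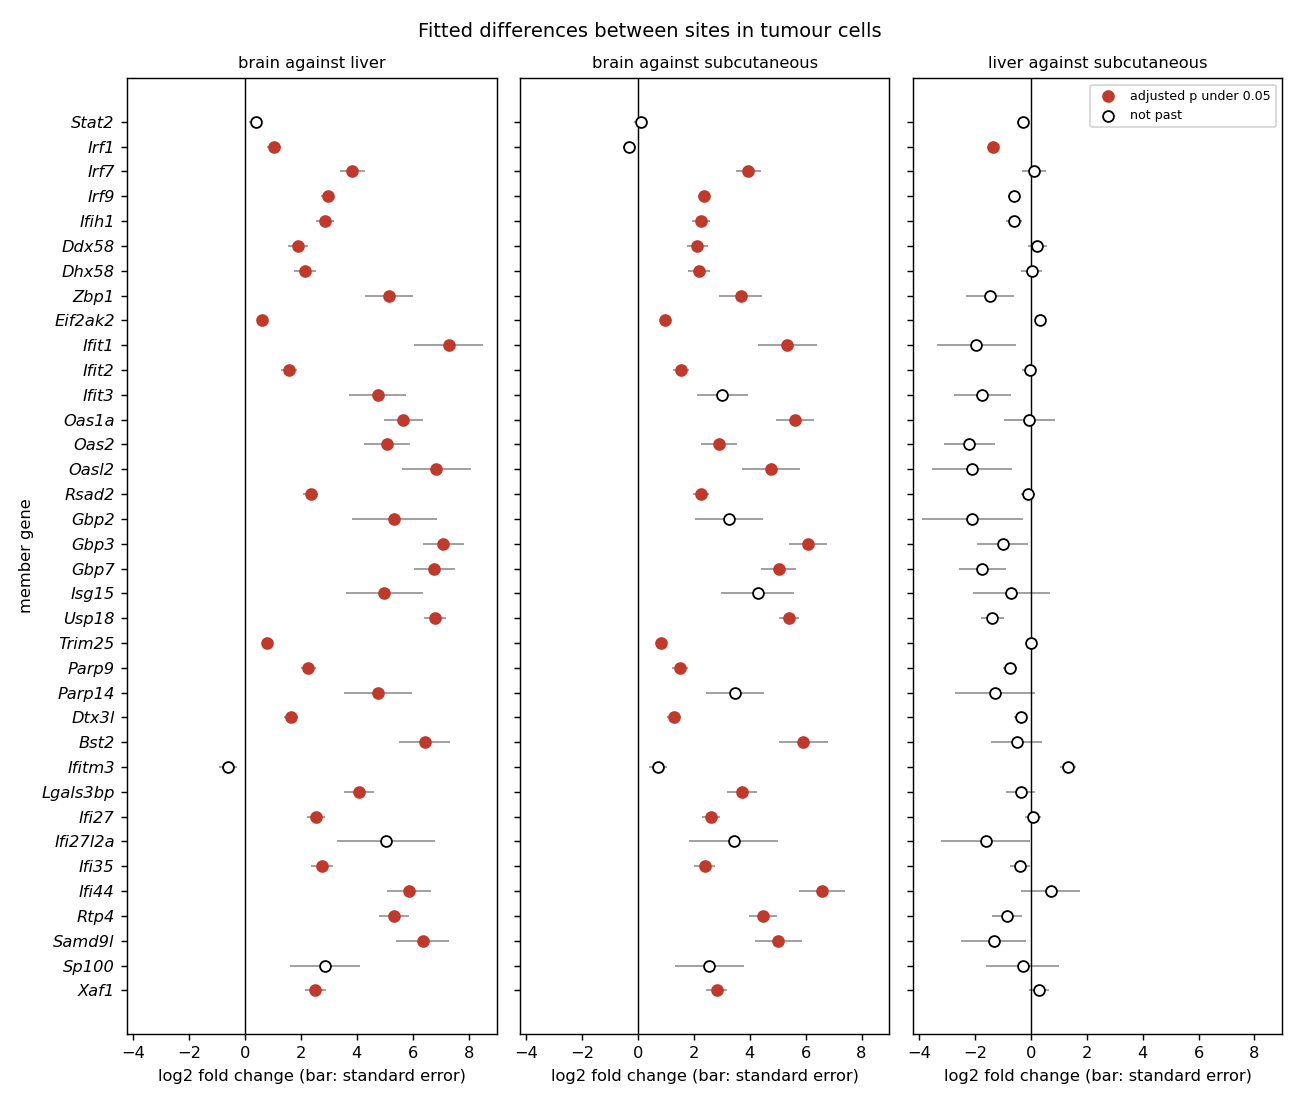
Fitted log2 fold change of each member in tumour cells for the 3 pairs of sites, with its standard error as a bar. Filled points have an adjusted p under 0.05 in edgeR (32, 27 and 1 of 36), and the only filled point left of zero is Irf1 in liver against subcutaneous tumours.

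Subcutaneous library 1 stood above the other libraries outside brain in 32 of 36 members, which held for 35.2% of all genes. Leaving out the highly expressed Ifitm3 and Ifi27, the members summed to 347 and 372 CPM in the brain libraries, 42.3 to 44.2 CPM in liver, and 87.5, 52.7 and 58.0 CPM in subcutaneous libraries 1, 2 and 3. The same library had 46.0 CPM of macrophage markers in its tumour cells, against 2.26 and 2.41 CPM in the other subcutaneous libraries. Without it, 34 members were called as higher in brain than in subcutaneous tumours in place of 27, while the share of all genes called as higher in brain went from 8.94% to 19.3%.

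The level of each member in tumour cells was next set against its level in host cells of the same library, and the same was done for the 11 macrophage markers. Cd68 is a poor marker here: in tumour cells of subcutaneous libraries 2 and 3, where the other markers were each at 0.193 CPM or less, it was at 1.18 and 1.52 CPM. In brain library 1 the CPM of the markers in tumour cells was 1.28% to 3.39% of that in host cells (median 2.09%), and in brain library 2 it was 0.249% to 1.26% (median 0.388%). The members had medians of 13.9% and 15.3%. The highest marker in both was Mrc1, at 3.39% (95% counting interval 1.39% to 7.20%) on 8 tumour UMIs and 1.26% (0.615% to 2.40%) on 13. In brain library 1, 21 of 36 members had an interval wholly above the upper limit of Mrc1, and in brain library 2 it was 30. Those at or below the highest marker were Isg15, Ifit3, Gbp2, Parp14 and Sp100 in library 1 and Gbp2 and Sp100 in library 2. Usp18 in tumour cells was at 64.3% and 63.3% of its host level, Ifi27 at 115% and 90.9%, and Trim25 at 107% and 104%. Bst2 was at 17.9% and 33.2%, and Isg15 at 3.08% and 2.24%. In subcutaneous library 1 the members' median was 1.40% against 0.334% for the markers, and 16 of 36 members did not exceed the highest marker there, Cd68 at 1.11%. Without Cd68, a change made after the data had been seen, the highest was Mrc1 at 0.669% on 15 tumour UMIs, and 12 members did not exceed it, among them Irf7, Isg15, Rtp4 and Zbp1. Leaving Cd68 out did not alter the counts in brain. In subcutaneous library 1, 17 members had an interval wholly above the upper limit of every marker.

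**Figure D4:**
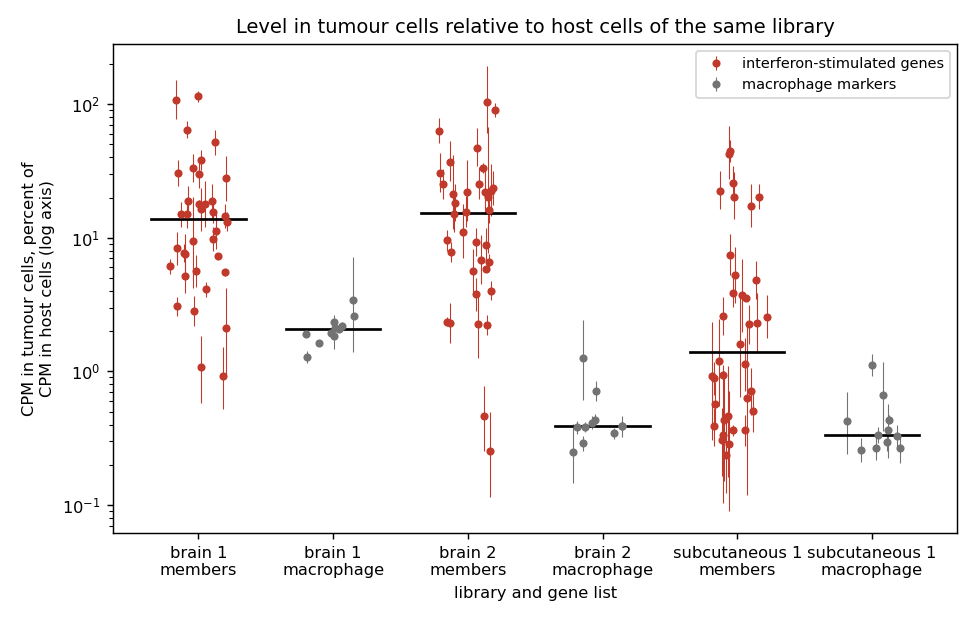
CPM in tumour cells as a percent of the CPM in host cells of the same library (log axis), for the 36 members and the 11 macrophage markers, with exact 95% counting intervals and the median of each list as a bar. In all 3 libraries the members' median (13.9%, 15.3% and 1.40%) lies above every macrophage marker and the lists overlap, with 5, 2 and 16 members at or below the highest marker.

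The comparison was repeated on tumour cells with little sign of host transcripts. Among tumour cells without a UMI of any macrophage marker, 30 members were higher in brain than in liver and 28 higher than in subcutaneous tumours, where 11.8% and 7.85% of all genes were. This left 537 of the 2418 tumour cells of brain library 1, at a median of 5687 UMIs per cell against 7972 before, and 3097 of 4060 in brain library 2. The members then had a median of 5.59 and 6.73 CPM in the brain libraries, against 6.73 and 6.91 CPM in all tumour cells. Among tumour cells with at most 1 UMI over 11 marker lists of host cell types, a restriction added after the data had been seen, 31 and 30 members were called as higher in brain, with 12.5% and 8.83% of all genes, and 285 and 1745 tumour cells remained in the brain libraries. Ifi27l2a was among them, with log2 fold changes of 7.18 (adjusted p = 0.00277) and 5.21 (adjusted p = 0.00956).

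Only a minority of brain tumour cells held a UMI of most members. After each cell had been thinned to 3000 UMIs, Bst2 was detected in 8.80% and 11.4% of tumour cells in the brain libraries and in 0.0655% to 0.778% elsewhere. Usp18 was detected in 6.19% and 7.95%, against 0.0493% to 0.477%. Irf7 was detected in 3.18% and 3.04%, against 0.0737% to 0.427%. Ifi27 was detected in 27.3% and 32.7%, against 4.39% to 10.8%. These shares count cells with a UMI at this depth and not cells that express the gene.

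Cells holding several members made up a larger share of the tumour cells in brain. At the same depth, cells with at least 3 different members made up 12.2% (277 of 2262, exact 95% interval 10.9% to 13.7%) and 13.6% (546 of 4012, 12.6% to 14.7%) of tumour cells in the brain libraries. They made up 0.592% to 0.712% in liver and 1.61%, 0.426% and 0.339% in subcutaneous libraries 1, 2 and 3. Cells with at least 5 members were 4.60% and 5.33% in brain and at most 0.226% elsewhere, and cells with at least 8 were 1.19% and 1.72% against at most 0.0753%. A thinned tumour cell held 1.17 and 1.25 members on average in the brain libraries. The averages were 0.463 to 0.507 in liver and 0.290 to 0.529 in subcutaneous libraries. Such shares rise with the level of the members alone, and the share expected from level was not computed. Up to 15 and 18 of the 36 members were seen in a single thinned brain cell. The 5% of tumour cells with most member UMIs held 39.8% and 40.9% of them in brain, against 32.2% to 38.3% in the other libraries. Without thinning, cells with at least 3 members were 36.7% and 34.3% in brain and 5.39% to 14.8% elsewhere.

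**Figure D5:**
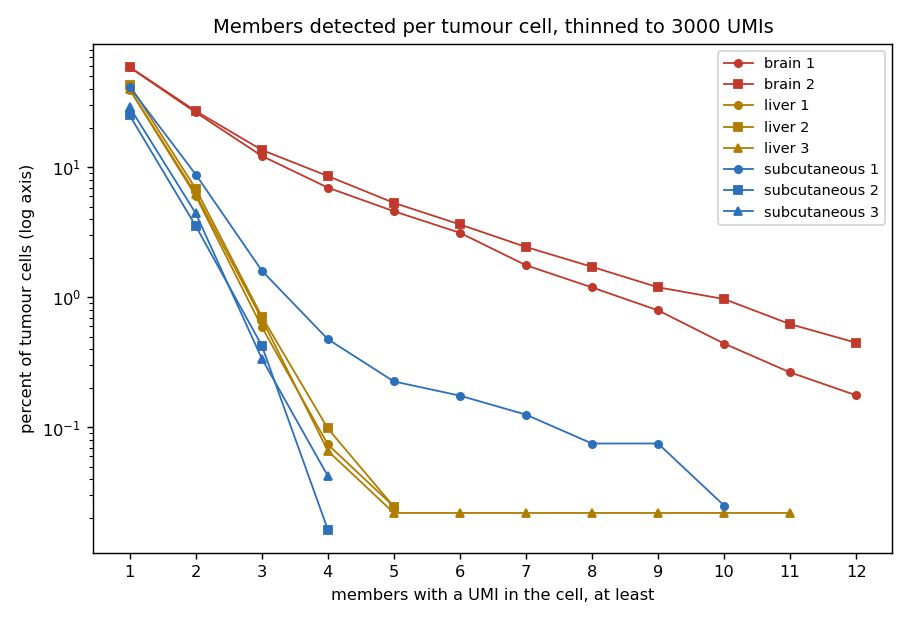
Percent of tumour cells (log axis) with a UMI of at least the given number of different members, each cell thinned to 3000 UMIs, by library. The brain curves fall slowly and reach 12 members, and of the others only liver library 3 and subcutaneous library 1 go past 5 members.

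The 104 and 214 brain tumour cells with at least 5 members were compared with the remaining tumour cells of their library, as a description, since members chose them. Their median UMI count before thinning was 7861 and 7976, against 8302 and 8490 in the rest, and their median share of eGFP and Mycl UMIs was 0.851% and 0.836%, against 0.818% and 0.731%. The class I antigen presentation genes summed to 2647 and 1279 CPM against 555 and 388 CPM. In the thinned counts a macrophage marker UMI was present in 46.2% and 10.3% of them, against 47.4% and 8.82% of the rest. The summed level of those markers was 2500 and 218 CPM against 399.6 and 62.6 CPM. Among tumour cells with no macrophage marker UMI left after thinning, 4.70% (56 of 1192) and 5.25% (192 of 3655) had at least 5 members. Among those with 3 or more such UMIs after thinning it was 9.84% (12 of 122) and 13.9% (5 of 36). Thinning removes marker UMIs: before it, only 537 and 3097 tumour cells of the brain libraries had none. Cells without a marker UMI here are therefore not all free of macrophage transcripts. Doublets were not called, and their part in these few cells was not tested.

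Pairs of members were correlated across single brain tumour cells. Over members with a UMI in at least 1% of thinned cells, 233 of 253 pairs in brain library 1 and 263 of 276 pairs in brain library 2 had a Pearson correlation of log-normalised values above zero, with medians of 0.058 and 0.082. Over all pairs of genes the medians were 0.00080 and 0.00013, with 51.4% and 50.3% of pairs above zero. The highest were Bst2 with Ifi27l2a in library 1 (0.359) and Usp18 with Bst2 in library 2 (0.495). In liver and subcutaneous libraries only 6 to 9 members were frequent enough, and the median of their pairs lay between -0.0077 and 0.0049. Cells of 1 library share its depth and its free RNA, and no p-value is given for these descriptions. The members' UMIs correlated with macrophage marker UMIs at 0.104 and 0.0375 across the same brain cells.

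In both brain libraries 10126 genes were frequent enough, 22 of them members. Each was correlated with the summed members, own value left out, and ranked by the lower of the values in the 2 libraries. The 40 most correlated genes held 14 members, 9 genes of the other interferon lists and 0 macrophage markers. The highest macrophage marker was Fcer1g, at rank 177. Bst2 came first (0.513 and 0.609), followed by Usp18 (0.446 and 0.563), Irf7 (0.410 and 0.463) and Gbp3 (0.375 and 0.468). The first gene outside all lists was Apol9a, an apolipoprotein L gene (0.413 and 0.360), with its near-identical relative Apol9b (0.406 and 0.347).

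Transcripts of the interferons themselves were almost absent. The tables list 21 interferon ligand genes, which together had 7 UMIs in 34719 tumour cells and 13 UMIs in 2078 host cells. Ifnb1, which encodes interferon beta, had 6 UMIs, all in 2 host cells of brain library 1: 3 in a cell of a microglia-like cluster and 3 in a cell of an MHC class II myeloid-like cluster. Another cell of that MHC class II myeloid-like cluster held 3 UMIs of Ifna2. Ifng and the lambda genes Ifnl2 and Ifnl3 had 0 UMIs. Ifnk had 4 UMIs in tumour cells and 4 in host cells. Clusters were named from marker lists.

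The receptors and the kinases differed less than the members between sites. Of 5 receptor genes tested, 3 were higher in brain than in liver and 2 higher than in subcutaneous tumours, where 13.2% and 8.94% of all genes were. Ifnar1, a chain of the type I receptor, was at 15.9 and 15.2 CPM in the brain libraries, 11.2, 10.96 and 11.4 CPM in the liver libraries and 10.7, 10.4 and 10.9 CPM in the subcutaneous libraries. It was called in both contrasts at 0.36 ± 0.10 (adjusted p = 0.0374) and 0.54 ± 0.10 (adjusted p = 0.0122), and Ifnar2, the other chain, was called against liver only (0.97 ± 0.20, adjusted p = 0.0114, and 0.67 ± 0.20, adjusted p = 0.0576). The kinases Jak1, Jak2 and Tyk2 were not called in any contrast, with log2 fold changes from -0.21 to 0.33. Among the factors outside the members, Stat3 was called as higher in brain than in liver (1.28 ± 0.16, adjusted p = 0.00172) and not against subcutaneous tumours (0.22 ± 0.16, adjusted p = 0.398), and Irf2 and Irf3 were not called in any contrast. Irf5 and Irf8, called in both brain contrasts at 3.82 ± 0.87 (adjusted p = 0.0152) and 4.34 ± 0.90 (adjusted p = 0.0164) for Irf5 and 4.33 ± 1.10 (adjusted p = 0.0259) and 5.43 ± 1.18 (adjusted p = 0.0212) for Irf8, are factors of myeloid cells. In the brain libraries Irf5 was at 2.67 and 1.09 CPM in tumour cells against 207 and 202 CPM in host cells, and Irf8 at 6.64 and 2.69 CPM against 408 and 376 CPM. Macrophage markers were also highest in these tumour cells, and the part of host RNA in these calls was not tested.

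Among 7 sensing genes tested, 3 were higher in brain in each contrast, where 13.2% of all genes were against liver and 8.94% against subcutaneous tumours. Mb21d1, the DNA sensor cGAS, was at 14.8 and 16.2 CPM in the brain libraries, 3.75, 5.23 and 3.78 CPM in the liver libraries and 6.64, 3.84 and 4.82 CPM in the subcutaneous libraries, with log2 fold changes of 1.75 ± 0.24 (adjusted p = 0.00214) and 1.61 ± 0.24 (adjusted p = 0.00474). Tmem173, its adaptor STING, was lower in level at 1.94 and 1.78 CPM in brain. It was at 0.182, 0.397 and 0.345 CPM in liver and 0.815, 0.435 and 0.443 CPM under the skin. Its log2 fold changes were 2.47 ± 0.43 (edgeR adjusted p = 0.00548) and 1.72 ± 0.42 (adjusted p = 0.0264). In host cells of the brain libraries Tmem173 was at 87.8 and 88.4 CPM, and the part of host RNA in its calls was not tested. Mavs, the adaptor of the RNA helicases, was at 7.93 and 10.3 CPM in brain, against 9.23, 9.78 and 9.78 CPM in liver and 10.00, 9.06 and 10.1 CPM under the skin and was not called in any contrast. Of 5 negative regulators, Socs1 and Socs3 were higher in brain in both contrasts, and Socs3 was at 195 and 146 CPM in the brain libraries, 50.5, 36.4 and 47.1 CPM in the liver libraries and 87.6, 56.6 and 63.4 CPM in the subcutaneous libraries.

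A second list of interferon-stimulated genes and the class I antigen presentation genes ran with the members. Over all genes, 13.2% were called as higher in brain than in liver and 8.94% as higher than in subcutaneous tumours. Of 35 further interferon-stimulated genes tested, 22 were higher in brain against each other site and 0 lower, with median log2 fold changes of 3.92 and 2.72. Genes of these 2 lists that passed the low-count filter only through brain were not separated. Oasl1 (6.05 and 5.86), the GTPase genes Irgm1 (4.25 and 3.81) and Igtp (5.95 and 4.16) and Cxcl10, which encodes a chemokine (3.93 and 2.35), were called in both. Cmpk2, Pnpt1 and Adar were not called in any contrast. Of 11 class I genes tested, 10 were higher in brain in each contrast, among them Psmb8, a subunit of the immunoproteasome (5.52 and 4.81), and B2m, the light chain of class I molecules (1.68 and 1.63). Psmb10 was not called.

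In the host cells of the brain tumours the members had a median level of 46.8 and 49.0 CPM, against 6.73 and 6.91 CPM in the tumour cells, with all 36 detected in both libraries. The level differed between kinds of host cell, which were named from marker genes after clustering without the interferon genes. A cluster that held all 11 macrophage markers was led by Sirpb1c, Cxcl2, Ly6c2 and Ccr2, of which Ly6c2 and Ccr2 are known from monocytes, so it is called the Ly6c2 myeloid cluster here. The median over the members was 53.8 and 66.7 CPM in the Ly6c2 myeloid cluster (108 and 47 cells), 68.5 and 46.6 CPM in MHC class II myeloid-like cells (105 and 56 cells), and 28.04 and 21.9 CPM in microglia-like cells (284 and 74 cells). Endothelial-like cells (52 and 18) had 53.7 and 85.6 CPM. In oligodendrocyte-like cells (10 and 16) the median was 0 CPM, with 14 and 13 members detected and Bst2 at 0 CPM. The members still summed to 1020 and 1258 CPM there. With so few cells, 0 CPM can also mean that too few UMIs were counted. Microglia-like cells were below the Ly6c2 myeloid cluster in both libraries, and no test was run with 2 libraries. The 339 and 91 brain host cells without a cell type name had medians of 33.9 and 37.1 CPM. Most of them lay in 2 clusters with few UMIs per cell. The first (288 and 41 brain cells) held 10 of 11 macrophage markers and 5 of 6 microglia markers. The second (40 and 44 brain cells) held all 11 macrophage markers. The values for microglia-like cells do not include the first of these clusters.

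Single members differed in which host cells held them. Bst2 was at 388 and 467 CPM in the Ly6c2 myeloid cluster and at 304 and 292 CPM in microglia-like cells. Ifitm3 was at 4213 and 4211 CPM in the Ly6c2 myeloid cluster and 3381 and 2323 CPM in endothelial-like cells, but at 191 and 135 CPM in microglia-like cells, close to its 128 and 124 CPM in tumour cells. Ifi27l2a was at 3195 and 3364 CPM in the Ly6c2 myeloid cluster and 376 and 377 CPM in microglia-like cells. Irf7 was at 548 and 446 CPM in the Ly6c2 myeloid cluster and 74.2 and 18.3 CPM in microglia-like cells. Ifi27 ran the other way, at 40.01 and 28.1 CPM in the Ly6c2 myeloid cluster, 117 and 157 CPM in microglia-like cells and 456 and 705 CPM in oligodendrocyte-like cells, the last from few cells. Gbp2 and Sp100, which were near the macrophage markers in their share of the host level, were at 115 and 141 CPM and at 169 and 176 CPM in the Ly6c2 myeloid cluster.

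Host cells of subcutaneous library 1 also held the members. The Ly6c2 myeloid cluster (68 cells) had a median of 72.5 CPM over the members and fibroblast-like cells (70) had 53.9 CPM. Irf7 was at 848 CPM and Bst2 at 522 CPM in that myeloid cluster, against 1.58 and 3.88 CPM in the tumour cells of the same library. In brain library 1, whose Ly6c2 myeloid cluster had 548 CPM of Irf7 and 388 CPM of Bst2, the tumour cells had 13.5 and 66.5 CPM. In liver library 2, 15 MHC class II myeloid-like cells had a median of 35.1 CPM with 28 members detected, and in the remaining 4 libraries outside brain no class other than tumour-like reached 10 cells.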

How the data were processed

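For each library the authors deposited a table of UMI counts by gene and cell, unnormalised and in Cell Ranger 3.0.0 format, per the file headers. The submitters' processing notes name Cell Ranger, STAR and the build mm10. The 36797 of 38460 cells with 500 or more genes and mitochondrial UMIs of no more than 10% were used, and doublets were not called. The deposited libraries held 27140735 to 63049542 UMIs, so low genes rest on the fewest UMIs in brain library 1.

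Tumour-cell counts were summed per library and tested in R 4.3.3 with edgeR 4.0.16 (TMM, filterByExpr, robust quasi-likelihood, 5 residual degrees of freedom, adjusted p under 0.05 by Benjamini-Hochberg). Standard errors (SE) were taken as the log2 fold change over the square root of F. CPM are summed UMIs scaled to a common total. Host cells were clustered in scanpy 1.11.5 (Python 3.11.15, 2000 variable genes without the interferon lists, 30 components, 15 neighbours, Leiden resolution 1, igraph 0.11.9). A name needed 3 markers detected in at least 20% of a cluster's cells. Intervals are exact at 95% and cover counting error only. Gene positions are those of GENCODE M21 (GRCm38), matched by identifier. The test step was checked on simulated data.

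Values in every library are given for members called in brain against liver or subcutaneous tumours and for the 3 members with the highest mean CPM, and the others by counts and ranges. Of the listed kinases and factors, 1 gene is not reported here. The members, lists and tests were chosen with earlier results of these data known. Alternatives were DESeq2 1.42.0, other size factors, no low-count filter, the replicate number as a block, only the 2 sites compared, other tumour-cell cuts, no cell filters, tumour cells with few host transcripts, thinning, and each library left out in turn.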

Additional observations from a re-analysis of the deposited data

How the results depend on the processing

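The number of members called between brain and liver was 29 to 35 under the alternatives that kept all libraries and 24 to 35 when 1 library was left out, against 32. Ifitm3 was among them in the fit of only these 2 sites and without subcutaneous library 1, as lower in brain. For brain against subcutaneous tumours it was 22 to 30 and 16 to 34, against 27, and the 16 came without brain library 1. For liver against subcutaneous tumours, where 1 member was called, DESeq2 called 3, edgeR with RLE size factors 2, cells without a macrophage marker UMI 2, cells with at most 1 host marker UMI 2, thinned cells 2, and fits with 1 library left out 0 to 3. The log2 fold change of Isg15 between liver and subcutaneous tumours was -0.69 with all libraries and -1.39 to 4.15 with 1 left out, on few UMIs. The 4.15 (edgeR adjusted p = 0.0411) came without subcutaneous library 1. The share of all genes called moved between runs as well. As higher in brain than in subcutaneous tumours it was 8.94% with all libraries and 19.3% without subcutaneous library 1. The counts of members are therefore no measure of how stable the members alone are.

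Deviations from the site means were correlated between libraries of different sites. The correlations ran from -0.252 to 0.262 for same-numbered libraries and from -0.272 to 0.301 for the others. With 2 brain libraries the deviations of 1 mirror those of the other, so this check cannot settle whether the numbers pair the libraries. With the replicate number as a block, 29, 25 and 1 members were called in the 3 comparisons.

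The share of brain tumour cells with at least 3 members averaged 12.9% at 3000 UMIs per cell, 22.04% at 5000 and 35.5% without thinning. Each deeper setting counts more UMIs per cell. The members' median level in brain host cells averaged 47.9 CPM and was 51.1 CPM with a host cell cut of 0.05%. It was 54.5 CPM over the 3 myeloid classes (the Ly6c2 myeloid cluster among them) at Leiden resolution 1 and 54.5 CPM at resolution 0.5. These classes held 497 and 177 cells of the brain libraries at either resolution, so the equal value is no separate check. Depth limits members under 1 CPM, and 2 brain libraries limit the tests.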

Other observations

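Among the 40 genes most correlated with the summed members across brain tumour cells, 17 belonged to no interferon or marker list. Of these, 6 lay within 3 megabases of Mycl on chromosome 4 (Cited4, Rragc, Zmpste24, Nfyc, Scmh1 and Akirin1), where 48 of the 13931 genes tested (0.345%) lie, and their correlations were between 0.154 and 0.235. Svbp and Ybx1 lay 3.80 and 3.72 megabases away. Mycl itself had correlations of -0.0727 and -0.102 with the members in the 2 brain libraries, and eGFP had 0.120 and 0.201. Brain tumour cells with at least 5 members had 4048 and 3150 CPM of Mycl, against 5216 and 4186 CPM in the rest, and 4663 and 5343 CPM of eGFP against 3438 and 3605 CPM. These genes were singled out after their values had been seen, and their part in the members' levels was not tested.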
